A study of Rattus norvegicus with 6 samples.

Results

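Hspa5, the gene of the endoplasmic reticulum (ER) chaperone BiP (also GRP78), was followed in cultured cardiomyocytes treated with erastin. It is 1 of the 34052 features in the deposited expression table and was taken by its Ensembl gene ID, ENSRNOG00000018294. The cells were neonatal rat ventricular cardiomyocytes, primary heart muscle cells from newborn rats. Cells given 10 µM erastin for 24 h (n = 3 libraries) were set against cells labelled as control (n = 3 libraries), in RNA sequencing of poly(A) RNA with the second strand marked. Both groups came from the same kind of primary culture, with no genetic change named, and the name of the deposited table calls the controls vehicle. The labels do not name the vehicle, give a time for the controls, or say how many animals or cultures a library holds. Erastin blocks system xc-, the cell's cystine/glutamate exchanger, and is used to induce ferroptosis, a cell death driven by iron and lipid peroxidation. The study profiled the genes that change in cardiomyocytes during ferroptosis.

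BiP is the HSP70-type chaperone of the ER lumen. It binds proteins as they enter the ER, helps them fold by cycles of ATP hydrolysis, and also binds the stress sensors IRE1, PERK and ATF6. When unfolded proteins accumulate these sensors set off the unfolded protein response, and a rise of Hspa5 RNA is one of the most used readouts of that response. In heart muscle the ER is continuous with the sarcoplasmic reticulum, which stores the calcium for contraction, and BiP is among the ER proteins that bind calcium.

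RefSeq places Hspa5 on the plus strand of chromosome 3 of the rat assembly GRCr8, from 38453016 to 38457475, as a protein-coding gene spanning 4460 bases. The 250 bases before its annotated start, chr3:38452766-38453015, are printed because they hold the elements through which the unfolded protein response is known to act on this gene. Capitals mark the ER stress response element, each CCAAT box on either strand, and the core TGACGTG, which ATF6 and other factors of the ATF/CREB type can bind.
Hspa5 promoter: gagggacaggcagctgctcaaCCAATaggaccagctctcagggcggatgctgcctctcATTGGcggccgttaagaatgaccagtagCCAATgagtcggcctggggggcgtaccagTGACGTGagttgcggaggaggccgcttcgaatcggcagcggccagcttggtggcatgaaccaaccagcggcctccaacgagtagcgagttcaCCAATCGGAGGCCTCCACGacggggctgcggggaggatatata

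The ER stress response element, searched on both strands as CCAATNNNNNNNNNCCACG, matched once, from 43 to 25 bases before the annotated start on the plus strand. Near matches with other letters were not searched, so further copies that differ from these letters would be missed. Its first 5 bases are also counted as a CCAAT box. Only 21 of 27457 rat genes (0.0765%) held this element in a window of the same length. CCAAT boxes numbered 4 in the Hspa5 window, 3 on the plus and 1 on the minus strand, and 0.637% of the genes had at least as many. The core TGACGTG matched once, from 135 to 129 bases before the start, against 1.59% of all genes with a match on either strand. All elements searched here and below were chosen with the Hspa5 sequence in view. Their presence or absence in Hspa5 was therefore known beforehand, and the shares only describe how common the letters are. The window was richer in G and C than most, at 61.6% against a median of 52%.

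Among the 21 genes with the element, 7 were on a list of 26 ER chaperones and folding enzymes, of which 22 had a promoter sequence in the RefSeq table. These were Hspa5, Hsp90b1 (the ER form of HSP90), the lectin chaperones Calr and Canx, the co-chaperone Dnajc3, the oxidase Ero1b and Creld2. Xbp1, a transcription factor of the unfolded protein response, and Derl3, which acts in the removal of misfolded ER proteins, also held it. The element was chosen as one already known from the unfolded protein response. Its presence in such genes is therefore a description, and no overlap was tested. Searched in the same way, the letters of 3 other elements were not in the Hspa5 window: TGACGTCA (the cAMP response element, in 1.70% of genes), TGATGNAA (the C/EBP-ATF element bound by ATF4, 3.27%) and TGACNNNGC (the antioxidant response element, 10.2%). No match says only that these letters are not in this stretch. A match is a stretch of letters and not a measured binding site, and binding was not measured in these cells.

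**Figure D1:**
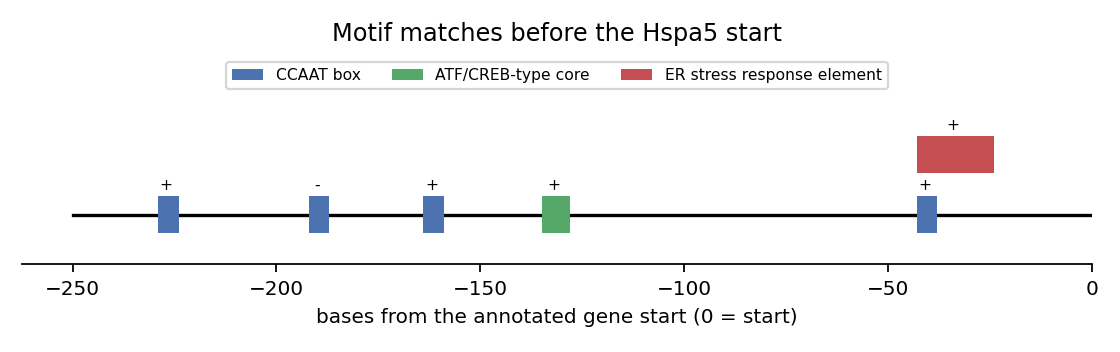
Matches of 3 elements in the 250 bases before the annotated Hspa5 start, by distance from the start in bases, with the strand of each match above it. The ER stress response element (red, drawn on a raised line) lies 43 to 25 bases before the start, and CCAAT boxes (blue) lie on both sides of the ATF/CREB-type core (green).

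In the values as deposited, Hspa5 RNA was more than 2-fold higher in erastin than in control libraries. Under other scalings of the libraries, given below, the increase was close to 2-fold. Levels are FPKM, fragment counts divided by feature length and by library size. Control replicates 1, 2 and 3 were at 220.2, 226 and 225 FPKM. Erastin replicates 1, 2 and 3 were at 478, 487 and 507 FPKM. Every erastin library lay above every control library, with 252 FPKM between the highest control and the lowest erastin value. That gap was wider than the range within either group, which was 5.68 FPKM in control and 29.4 FPKM in erastin libraries.

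The mean level went from 224 ± 2.97 FPKM (SD, n = 3) in control to 490.5 ± 15.0 FPKM (SD, n = 3) with erastin, a 2.19-fold increase. Over the 9 pairs of 1 erastin and 1 control library the ratio lay between 2.11 and 2.30. On the log2(FPKM + 1) scale the difference was 1.13 (SE 0.033, 95% interval 1.05 to 1.21), with a Benjamini-Hochberg adjusted p of 7.64e-08 in limma fitted over 13576 features. The exact two-sided permutation p of the 6 FPKM values was 0.1, the smallest that 3 against 3 libraries can give. Changes were common in this comparison. By the same limma threshold 66.4% of the tested features changed, 42.3% upward, and in 45.7% all 3 erastin values lay above all 3 control values, so passing the threshold does not set Hspa5 apart. Its size is less common, since 5.15% of the features rose at least 2-fold.

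**Figure D2:**
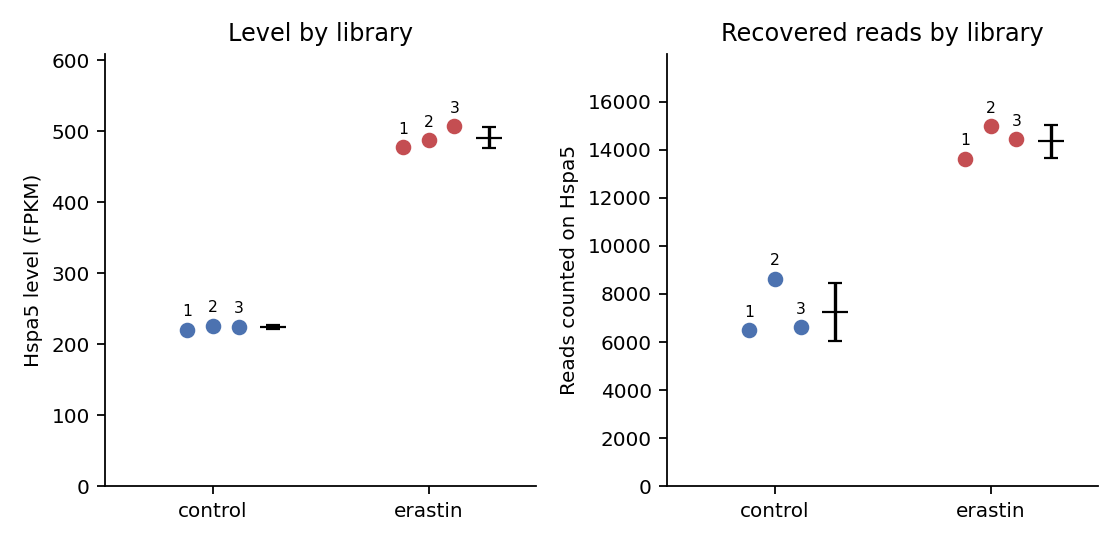
Hspa5 in each library, as FPKM (left) and as reads recovered from the FPKM (right), with replicate numbers above the points and the mean with SD (n = 3) beside each group. The erastin libraries sit at 478 to 507 FPKM and the control libraries at 220.2 to 226 FPKM, and control replicate 2 has more reads than the other control libraries at a like FPKM.

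Many reads lie behind these values. The FPKM correspond to 6493, 8632 and 6621 reads in control replicates 1, 2 and 3, and to 13641, 14993 and 14452 reads in erastin replicates 1, 2 and 3, over a counted length of 2562 bases. Library totals were 11126968 to 14914827 reads, and the higher count of control replicate 2 goes with the deepest library. Hspa5 held 0.0573 ± 0.000762% of the reads in control libraries (SD, n = 3) and 0.126 ± 0.00385% with erastin (SD, n = 3). Counting error alone would give a standard error of 0.012 for the log2 fold change, below the 0.028 that the 6 Hspa5 values give by themselves and the 0.033 of limma, which also draws on the spread of the other features.

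The control libraries agreed closely on Hspa5. Their coefficient of variation (SD as a percentage of the mean) was 1.33%, against 1.08% to 1.24% from counting alone, and 85.2% of the 603 features within 2-fold of its control level varied more. In erastin libraries it was 3.06%, above the 0.817% to 0.856% from counting and close to the median of 2.95% among 289 features within 2-fold of its erastin level. The labels do not name a separate culture or litter for each library. The p-values therefore cover only the spread seen among these 6 libraries, and part or all of it may be technical.

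Hspa5 was already an abundant transcript without erastin. By mean level it ranked 326 among the 13576 tested features in control libraries, at 224 FPKM against a median of 11.5, and 135 in erastin libraries, at 490.5 FPKM against a median of 12.9. Its rank was 317 to 336 in single control libraries and 126 to 138 in single erastin libraries, so these ranks did not overlap either. The neighbours of Hspa5 in this order could not be separated from it by level, since the 3 values of 46 other features in control and of 26 in erastin libraries spanned a range that overlapped its own.

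The features directly next to Hspa5 in control level took other courses. The one directly above it in control libraries, at 224 ± 10.1 FPKM, was at 188 ± 3.93 FPKM with erastin (SD, n = 3), lower by limma (log2 fold change -0.25, SE 0.040, adjusted p = 0.000803). The one directly below, at 223 ± 10.7 FPKM, was at 213 ± 13.3 FPKM with erastin (SD, n = 3; log2 fold change -0.07, SE 0.054, limma adjusted p = 0.316). In erastin libraries the features directly above and below Hspa5 had been at 422 ± 32.9 and 425 ± 24.4 FPKM in control (SD, n = 3), and their log2 fold changes were 0.24 (SE 0.054, limma adjusted p = 0.00519) and 0.19 (SE 0.043, limma adjusted p = 0.0048). With erastin, Hspa5 reached the level of these neighbours, which were nearly as high before treatment.

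How common an increase of this size was among abundant features depended on how they were chosen. Of the 603 other features within 2-fold of the Hspa5 control level, 235 rose, 271 fell and 97 did not pass the adjusted p, and their median log2 fold change was -0.05 with quartiles of -0.48 and 0.31. In this set 24 features rose at least 2-fold and 22 (3.65%) had a larger log2 fold change than Hspa5. Within 1.5-fold of its control level, 13 of 318 features did. The share was higher where the choice took in the erastin level, at 29 of 376 features (7.71%) with a mean over 6 libraries within 2-fold of Hspa5, and 19 of 134 (14.2%) with a mean erastin level above its own. Over all tested features 4.17% had a larger log2 fold change, and 7.94% had a larger change in either direction. The 4.17% varied with the pseudocount, the method and the filter. It was 6.28% and 6.62% with pseudocounts of 0.1 and 0.01 and 6.17% with voom on recovered reads. With no filter it was 2.59%, and among features with a mean of at least 5 FPKM it was 4.44%. The addition of 267 FPKM was the 36th largest gain in mean FPKM. Features of like counted length, within 1.5-fold of 2562 bases, gave a similar background, with 3.68% of 5875 above Hspa5.

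**Figure D3:**
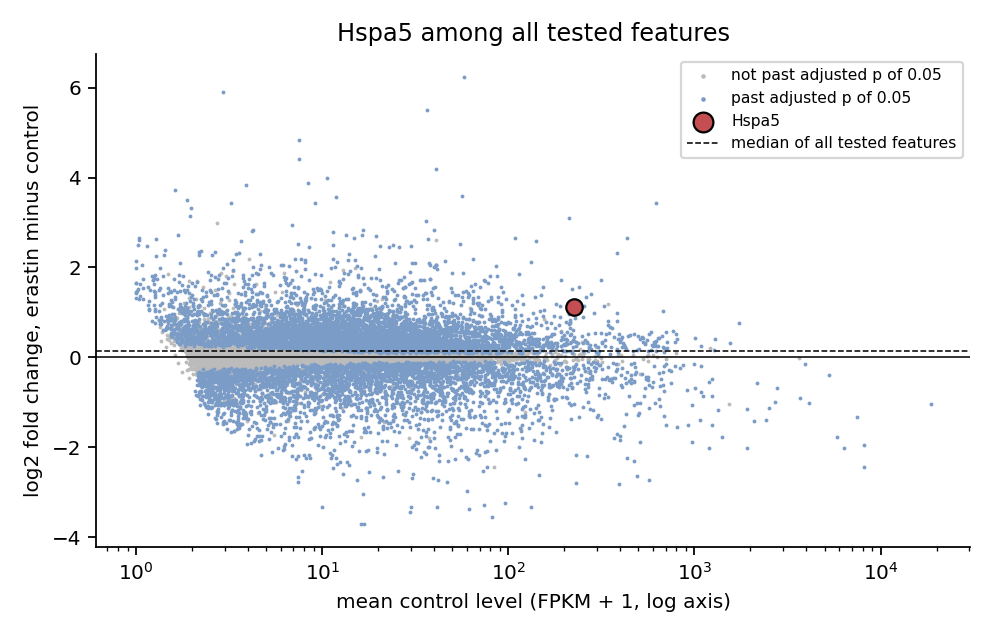
Log2 fold change (erastin minus control, on log2(FPKM + 1)) against mean control level (FPKM + 1, log axis) for all 13576 tested features, colored by the adjusted p of 0.05, with Hspa5 in red. Hspa5 lies at 1.13 on the vertical axis, above the median of all features at 0.13 (dashed) and above most features within 2-fold of its control level.

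The size of the increase, but not its direction, depended on how the libraries were scaled. FPKM divides by the library total, and the median tested feature was 0.13 higher with erastin on the log2 scale. After centring each library on its median log ratio, which lowered Hspa5 by 0.13, its log2 fold change was 1.00 (limma adjusted p = 1.53e-07), or 2.00-fold. Upward changes made up 63.7% of all changed features as deposited and 49.8% after centring. Centring brought the median log2 fold change to 0.0065 by construction, so a near-even split was largely built in. The RNA content of the cells was not measured. With bulk RNA a change in Hspa5 RNA per cell and a change in the mix of cells cannot be told apart. FPKM is relative to the library total, so these values do not show the number of cells. The labelled cell type was not checked against cardiac or other marker genes, since the IDs of the table were not paired with gene symbols in the sources used here.

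**Figure D4:**
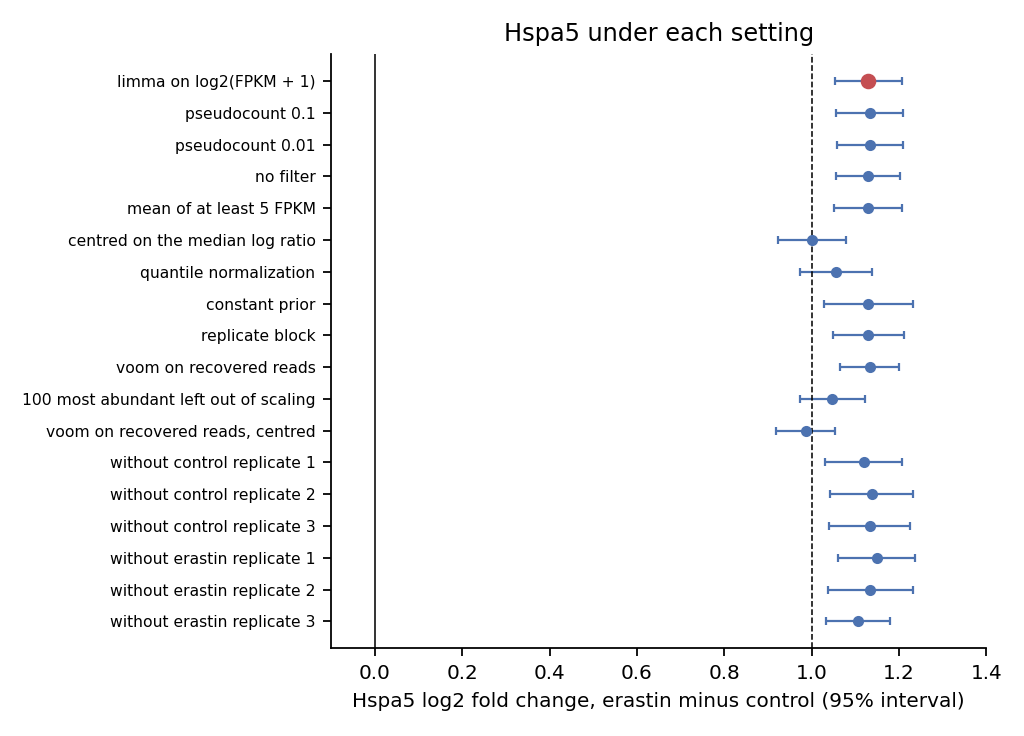
Hspa5 log2 fold change (points) with its 95% interval (bars) under limma on log2(FPKM + 1) (red) and under 17 alternatives (blue), with lines at 0 and at 1, a 2-fold increase. All points lie between 0.99 and 1.15, and the lowest are those with centred libraries.

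The features whose values followed Hspa5 most closely were sought among 7593 others with a mean of at least 10 FPKM. Likeness was the root mean square difference, over the 6 libraries, between profiles of log2(FPKM + 1) with each feature's own mean subtracted. With 2 groups this measure is mostly the size of the group difference, and it says nothing of shared function. The median feature differed from Hspa5 by 0.49, and 180 features were within 0.1.

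ENSRNOG00000018566 was the closest, with a difference of 0.0089. It was at 185, 190.1 and 188 FPKM in control replicates 1, 2 and 3 and at 400.04, 414 and 431 FPKM in erastin replicates 1, 2 and 3. The order of the libraries within the erastin group was that of Hspa5, lowest in replicate 1 and highest in replicate 3, and in control both were lowest in replicate 1 and highest in replicate 2. It was chosen on these same 6 values, so its order, its fold and its adjusted p follow largely from the choice. These are given as a description. Its mean went from 188 ± 2.42 to 415 ± 15.5 FPKM (SD, n = 3), and limma put its log2 fold change at 1.14 (SE 0.036, adjusted p = 1.07e-07). It had 3503 to 8175 reads per library. It was the closest feature whichever library was left out.

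ENSRNOG00000020878 came next, with a difference of 0.025, at a far lower level than Hspa5. It went from 18.3 ± 0.418 to 41.7 ± 1.17 FPKM (SD, n = 3; log2 fold change 1.14, SE 0.041, limma adjusted p = 2.1e-07), and its place moved between 2 and 7 when single libraries were left out and was 12 with a pseudocount of 0.1. The other 3 of the 5 closest features differed by 0.027 to 0.029 and had log2 fold changes of 1.10 to 1.13. Beyond the first, the order changed with the libraries used. All 5 were chosen on the same 6 libraries, so their fold changes and adjusted p-values follow largely from the choice.

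**Figure D5:**
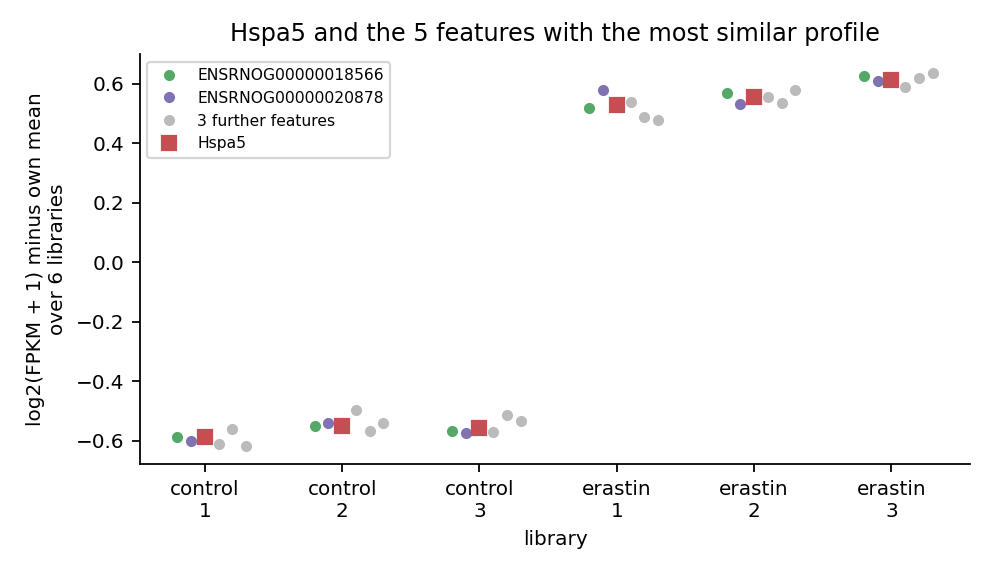
Log2(FPKM + 1) minus each feature's own mean over the 6 libraries, for Hspa5 (red squares) and the 5 features with the smallest root mean square difference from it (circles), by library. The points of ENSRNOG00000018566 (green) are close to those of Hspa5 in every library, with a difference of 0.0089.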

How the data were processed

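RNA of 6 libraries, 3 control and 3 erastin, was compared; libraries were grouped by title. Per the labels' protocols, libraries were dUTP-marked and read as paired ends on a NovaSeq. HISAT2 2.0.5 and DESeq2 are named, without a role, in the submitters' processing notes. Counting tool, genome build and annotation: not given in the sources used here. Values are FPKM as the authors deposited them, in 1 table. Hspa5 and the lists were chosen with earlier results of these data known.

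Whole reads, library totals and counted lengths were recovered from the steps of the FPKM, since FPKM is reads divided by length and library total. All 13576 tested features gave whole reads within 0.01 reads (plus a rounding allowance that grows with the count), and the reads of all features summed to 99.5% to 99.6% of the totals.

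Features reaching 1 FPKM in 3 or more libraries were tested with limma 3.58.1 under R 4.3.3. Values were log2(FPKM + 1), the prior was trended and robust, and p-values were adjusted by Benjamini-Hochberg. The fit was also run on simulated data in which far fewer features changed than here, all of them upward. That run does not show how the fit behaves when changes are as common as in these libraries. Python 3.11.15, scipy 1.17.1 and matplotlib 3.10.9 were used for the exact test and figures. Features were named by fixed rules: Hspa5, the closest profiles (the first 2 by ID) and the neighbours in level. The reference tables paired 0 of 34052 IDs with symbols, so the gene lists fixed for the ER stress pathway and for cell types were not tested for expression. Hspa5 was matched to RefSeq (GRCr8) by symbol. Promoter motifs were chosen with the Hspa5 sequence in view and were searched in 1 start per gene, the first listed.

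Alternatives were pseudocounts of 0.1 and 0.01, 2 other filters, 3 other scalings, a constant prior, the replicate block, each library left out, limma's voom on recovered reads, and stricter thresholds. Voom with centring was added after the data were seen. Same-numbered libraries were not paired by the labels.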

Additional observations from a re-analysis of the deposited data

How the results depend on the processing

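Hspa5 kept its increase and an adjusted p under 0.05 in all 17 alternatives, with log2 fold changes of 0.99 to 1.15 and limma adjusted p from 3.85e-17 to 8.67e-06. Leaving out single libraries gave 1.11 to 1.15. Whether the increase exceeds 2-fold depends on the scaling: the 95% interval reached below 1 in 4 alternatives, namely centring, quantile normalization, centred voom values, and leaving the 100 most abundant features out of the scaling. The number of changed features, 9011, stayed within 1.5 times except when a 2-fold change was also required, which by construction left 1344. Upward changes were 63.7% of the 9011, against 49.8% after centring, 51.8% after quantile normalization and 49.5% for centred voom values. These scalings pull the median log2 fold change towards no change by construction, so a near-even split was largely built in. The upward share was 56.1% with the 100 most abundant features left out of the scaling and 52.0% when a 2-fold change was required. With the replicate block the Hspa5 value was 1.13 (limma adjusted p = 5.7e-06) and 8768 features changed. The deviations of same-numbered libraries correlated at -0.03, 0.07 and 0.03, against -0.07 to 0.04 between other numbers. Of the 5 features most like Hspa5, 1 to 3 were again among the 5 closest when a library was left out, and 3 with a pseudocount of 0.1; the cause was not tested. Depth did not limit Hspa5, which had at least 6493 reads in every library.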
